A study of Solanum lycopersicum with 12 samples.

Results

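The genes described here are 7 abundant small heat shock protein (sHSP) genes of tomato, followed across WT fruits and fruits that overexpress *VvSUC11*, *VvSUC12* or *VvSUC27* (*VvSUC11*-OE, *VvSUC12*-OE and *VvSUC27*-OE). They were taken from a table of 22827 genes because the deposited NR annotation names them as class I, class III, mitochondrial or 14.7 kDa sHSPs and because they were among the most abundant of their family. By annotation the family held 39 genes, of which 29 were named as sHSPs and 10 carried an Hsp20 domain under another name. The 7 were the highest of the 29 by mean level over the 12 libraries. The last gene inside this choice, gene9595, had a mean of 37.5 FPKM over all libraries and the first gene outside it, gene16552, had 37.0 FPKM. FPKM are fragments per kilobase of transcript, relative to the total of mapped fragments, a level corrected for transcript length, so that genes can be compared with each other.

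RNA was sequenced from whole fruits of Micro-Tom tomato at 5 days post-anthesis (DPA), a young green stage, with 3 libraries in each of the 4 groups. The 3 transgenic groups carried a sucrose transporter gene of grapevine, *VvSUC11*, *VvSUC12* or *VvSUC27*, under the 35S promoter, which drives expression in most tissues, and were selected with hygromycin. The WT fruits carried none of these genes. Each transgenic group came from a single line, in the T1 generation for *VvSUC11*-OE and *VvSUC12*-OE and in T0 for *VvSUC27*-OE, so transgene, plant line and, for *VvSUC27*-OE, generation cannot be told apart. The study describes the 3 libraries of a group as independent biological replicates, while the sample labels do not say which plants they came from, and the p-values below measure the spread between these libraries only.

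sHSPs are chaperones that work without ATP. They bind proteins that begin to unfold and hold them in a state from which HSP70 and HSP100 chaperones can refold them, and they share the alpha-crystallin (Hsp20) domain, through which they assemble into oligomers. Plants have many of them, sorted into classes by sequence and by the compartment in which they act, and most are switched on by heat stress transcription factors when cells are heated, while some are also made during pollen, seed and fruit development.

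Among the 7 genes were 4 of the 12 named class I genes, which encode cytosolic proteins: gene16555 (17.6 kDa, Solyc06g076570, Hsp20.0 in RefSeq), gene21843 (18.1 kDa, Solyc09g011710), gene16549 (17.8 kDa, Solyc06g076520, HSP17.8) and gene16550 (17.7 kDa, Solyc06g076540, HSP20-1). The others were gene9595 (17.4 kDa class III, Solyc03g123540), gene20842 (mitochondrial, Solyc08g078700, MTSHP) and gene20844 (14.7 kDa, Solyc08g078720). RefSeq entries were matched by gene identifier for 6 of the 7, all but gene20844. Class I genes are close relatives, and reads that fit several copies could have been split between them during the authors' counting, so the level of any single class I gene is less certain than the FPKM alone would say.

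The 7 genes together gave 357 ± 16.1 FPKM in WT fruits (SD, n = 3). Their sum was 794 ± 35.5 FPKM in *VvSUC11*-OE fruits, reached 933 ± 44.9 FPKM in *VvSUC12*-OE fruits and was 563 ± 36.5 FPKM in *VvSUC27*-OE fruits, and the libraries of the lines did not overlap with those of the WT. Part of this difference follows from the choice of genes. The sum holds gene16550 and gene20842, which ranked 24 and 8 of the named sHSPs in the WT and were chosen through their levels in the lines. The make-up of the sum also differed. In the WT, gene16555 alone gave 53.6% of it, against 26.1% in *VvSUC11*-OE fruits, where gene21843 was the largest component with 39.2%. The mitochondrial gene20842, chosen through the lines, gave 1.92% of the sum in the WT and between 9.9% and 11.4% in the lines. Because the tissue was whole fruit, fewer cells of a type and less RNA per cell cannot be told apart in any of these values.

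**Figure D1:**
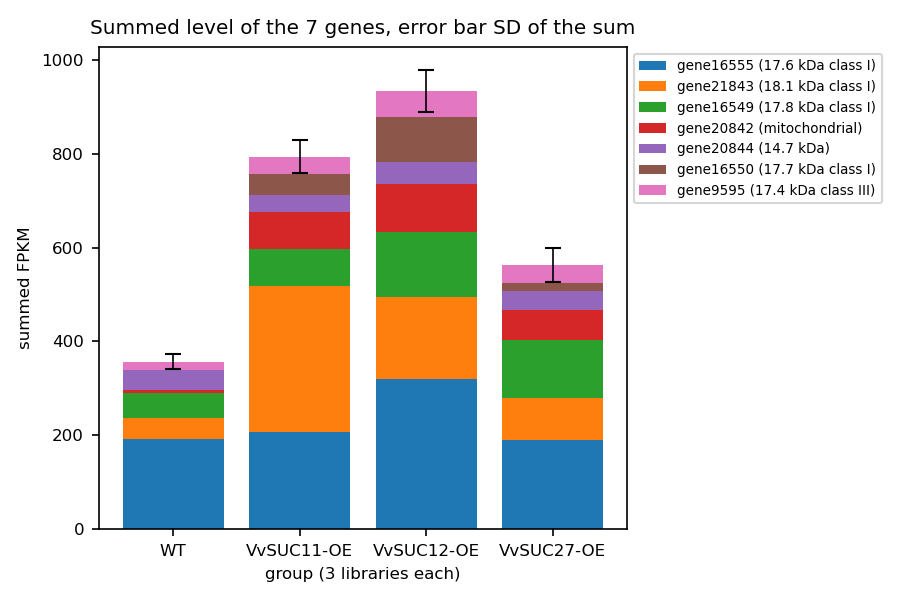
Summed FPKM (vertical axis) of the 7 sHSP genes in the 4 groups (horizontal axis), each bar divided by gene from the group means of 3 libraries; the error bar is the SD of the sum. The bars reach 357 FPKM in the WT and 933 FPKM in *VvSUC12*-OE fruits, and the gene16555 segment is nearly the same size in the WT, *VvSUC11*-OE and *VvSUC27*-OE bars. The segments of gene16550 and gene20842 are a description, since these genes entered the choice through the lines.

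Differences between groups were tested with limma, a linear model fitted across all genes, on log2(scaled count + 1), where the scaled count is the deposited read count per gene after the authors had brought the libraries to a common size. The log2FC is the difference of the group means on this scale. A gene was called changed at a false discovery rate (FDR, the Benjamini-Hochberg adjusted p) under 0.01 and an absolute log2FC above 1. The 3 comparisons with the WT share the same 3 WT libraries and are not independent of each other. With 3 libraries against 3, a two-sided exact permutation test of FPKM cannot go below p = 0.1, and it reached this value for every pair of groups whose FPKM did not overlap. Since abundance chose the genes, it was checked which of them would have been chosen by the WT libraries alone. This held for 5 of the 7. The other pair, gene16550 and gene20842, ranked 24 and 8 of the named sHSPs in the WT and entered the choice through the lines, so their differences from the WT are given as a description without a test. For the same reason gene16550, which ranked 13 in *VvSUC27*-OE fruits, has no test against that line. Its difference between *VvSUC11*-OE and *VvSUC12*-OE fruits, whose levels brought it into the choice, is a description too.

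**Figure D2:**
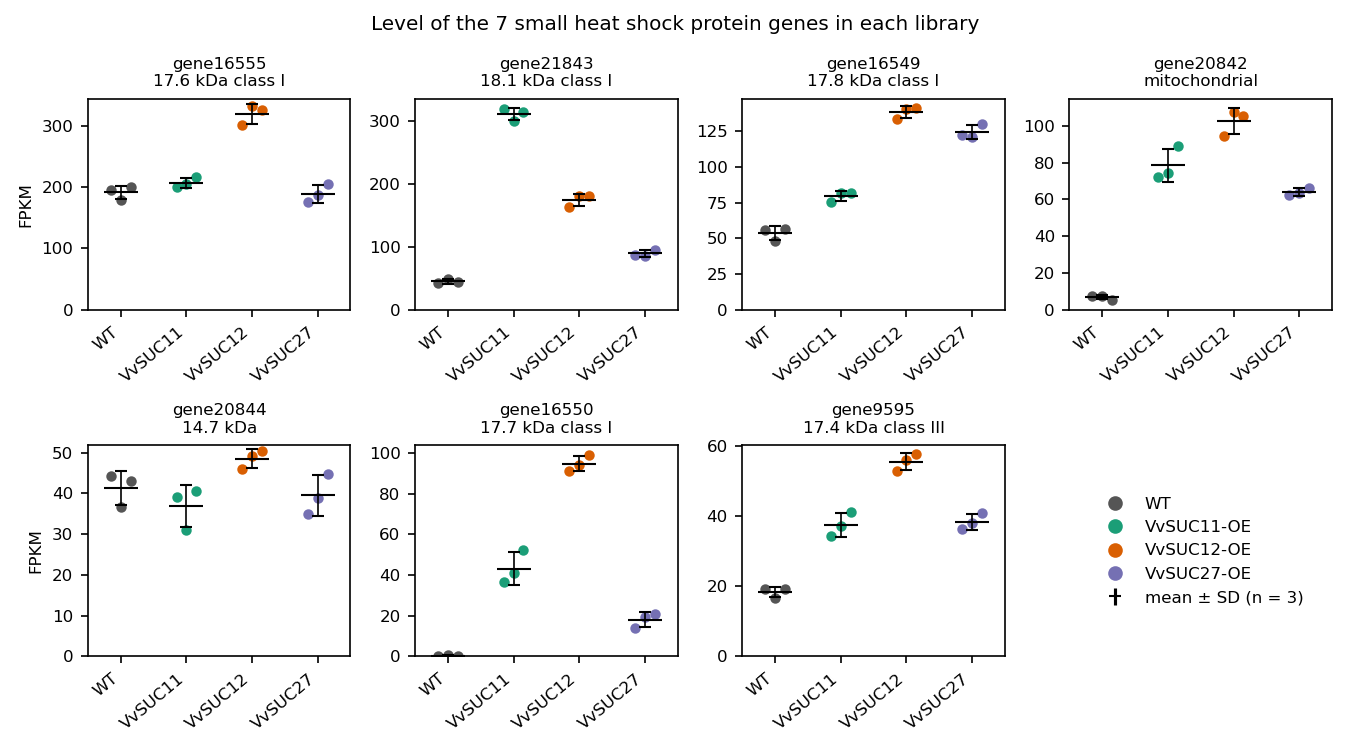
FPKM (vertical axis, linear, one scale per gene) of each of the 7 genes in every library of the 4 groups; points are libraries, the horizontal mark is the group mean and the bar its SD (n = 3). In 6 of the 7 panels the *VvSUC12*-OE libraries have the highest mean, gene21843 is highest in *VvSUC11*-OE fruits, and gene16550 lies at or near 0 in the WT.

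The most abundant gene, gene16555, was a class I gene whose level differed little from the WT in all but one line. Its FPKM were 195, 179 and 200.01 in the WT libraries, 199.9, 205 and 216 in *VvSUC11*-OE, 301, 332 and 325 in *VvSUC12*-OE and 176, 187 and 205 in *VvSUC27*-OE. Only the *VvSUC12*-OE libraries stood clear of those of the other groups. The log2FC against the WT was 0.63 ± 0.0354 (SE, adjusted p = 6.27e-11) in *VvSUC12*-OE fruits, a mean FPKM 1.67 times that of the WT, which is below the fold threshold. In *VvSUC11*-OE fruits it was 0.06 (adjusted p = 0.155) and in *VvSUC27*-OE fruits -0.04 (adjusted p = 0.506). The order of the means was thus *VvSUC12*-OE, *VvSUC11*-OE, WT and *VvSUC27*-OE, and the last 3 did not differ beyond the spread of their libraries in neighbouring steps.

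By contrast, gene21843, another class I gene, separated all 4 groups. In the WT it had 42.7, 49.4 and 43.4 FPKM. The *VvSUC11*-OE libraries had 318, 299.9 and 314 FPKM, the *VvSUC12*-OE libraries 163, 179.8 and 181 FPKM and the *VvSUC27*-OE libraries 87.0, 85.5 and 95.5 FPKM. No library of one group overlapped with a library of another. It rose in *VvSUC11*-OE fruits (log2FC 2.77 ± 0.0573, adjusted p = 1.35e-14) and in *VvSUC12*-OE fruits (log2FC 1.90 ± 0.0571, adjusted p = 7.97e-15), which are 6.89 and 3.87 times the WT mean FPKM. For *VvSUC27*-OE the log2FC of 0.99 ± 0.0615 (adjusted p = 2.3e-10) was just short of the fold threshold, and it was 1.07 without WT replicate 2, 1.01 without *VvSUC27*-OE replicate 1 and 1.01 without *VvSUC27*-OE replicate 2. Between the lines, gene21843 fell by 1.78 on the log2 scale from *VvSUC11*-OE to *VvSUC27*-OE (SE 0.042, adjusted p = 8.45e-16). It was the only one of the 7 that was not highest in *VvSUC12*-OE fruits.

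A different order was seen for gene16549, the third abundant class I gene. The WT libraries had 55.9, 48.3 and 56.7 FPKM and the *VvSUC11*-OE libraries 75.6, 82.0 and 81.3 FPKM. It had 133, 140.5 and 141 FPKM in *VvSUC12*-OE and 122, 121 and 130.0 FPKM in *VvSUC27*-OE libraries. The gene was thus high in *VvSUC12*-OE and *VvSUC27*-OE fruits and between these and the WT in *VvSUC11*-OE fruits. It rose against the WT in *VvSUC12*-OE (log2FC 1.25 ± 0.0492, adjusted p = 3.38e-13) and *VvSUC27*-OE fruits (log2FC 1.19 ± 0.05, adjusted p = 9.02e-13). With a log2FC of 0.52 ± 0.0591 (adjusted p = 1.99e-06), *VvSUC11*-OE fruits passed the FDR but not the fold threshold. *VvSUC12*-OE and *VvSUC27*-OE fruits, the neighbours at the top of the order, did not pass the test (log2FC -0.06 ± 0.0353, adjusted p = 0.175), although their libraries did not overlap.

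The fourth class I gene, gene16550, was almost absent from WT fruits. The FPKM of the WT libraries were 0, 0.643 and 0.0845, from scaled counts of 0, 7 and 0. In the lines it reached 36.3, 41.0 and 52.2 FPKM (*VvSUC11*-OE), 91.3, 94.2 and 98.8 FPKM (*VvSUC12*-OE) and 13.7, 19.5 and 20.6 FPKM (*VvSUC27*-OE). Every library of a line was far above every WT library, and the 3 lines did not overlap with each other either. A fitted fold change against values so near 0 depends on the number added before the logarithm, so the scaled counts are compared instead. The lowest *VvSUC11*-OE library had 59.9 times, the lowest *VvSUC12*-OE library 140.1 times and the lowest *VvSUC27*-OE library 22.3 times the scaled count of the highest WT library. From *VvSUC11*-OE to *VvSUC12*-OE fruits gene16550 was higher by a log2FC of 1.08 ± 0.0694, given as a description because these lines brought it into the choice. limma called it up here, but not when all 12 libraries shared one fit. The level in *VvSUC27*-OE fruits was 0.415 times that in *VvSUC11*-OE and 0.189 times that in *VvSUC12*-OE fruits.

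The class III gene, gene9595, was lowest in the WT and highest in *VvSUC12*-OE fruits; class III proteins are known from Arabidopsis to be found in the nucleus and cytosol. It had 19.2, 16.8 and 19.3 FPKM in the WT and 52.8, 56.2 and 57.8 FPKM in *VvSUC12*-OE libraries. In *VvSUC11*-OE libraries it had 34.3, 37.2 and 41.1 FPKM and in *VvSUC27*-OE libraries 36.2, 37.9 and 40.9 FPKM. All 9 transgenic libraries were above all WT libraries, while *VvSUC11*-OE and *VvSUC27*-OE overlapped. The gene rose in *VvSUC12*-OE fruits (log2FC 1.45 ± 0.0761, adjusted p = 2.12e-11) and in *VvSUC27*-OE fruits (log2FC 1.03 ± 0.0858, adjusted p = 1.32e-08). *VvSUC11*-OE fruits passed the FDR with a log2FC of 0.98 ± 0.0872 (adjusted p = 1.43e-07). The last pair of values lay on either side of the fold threshold without differing from each other (log2FC of *VvSUC27*-OE against *VvSUC11*-OE 0.05 ± 0.0754, adjusted p = 0.568). With libraries rescaled to equal totals they became 1.01 in *VvSUC11*-OE and 0.995 in *VvSUC27*-OE fruits, and the calls changed places.

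Of the genes outside the cytosol, gene20842 encodes the mitochondrial sHSP, a chaperone of the mitochondrial matrix. It had 7.35, 7.67 and 5.58 FPKM in the WT libraries. The *VvSUC11*-OE libraries had 72.2, 74.5 and 88.9 FPKM, the *VvSUC12*-OE libraries 94.3, 108 and 105 FPKM and the *VvSUC27*-OE libraries 62.1, 63.5 and 66.1 FPKM. No 2 groups overlapped, and the gap between the WT and any line was larger than the gap between lines. The mean FPKM was 11.4 times that of the WT in *VvSUC11*-OE, 14.9 times in *VvSUC12*-OE and 9.31 times in *VvSUC27*-OE fruits. Among the lines, *VvSUC12*-OE was above *VvSUC11*-OE by a log2FC of 0.30 ± 0.0525 (adjusted p = 6.18e-05) and *VvSUC27*-OE was below *VvSUC11*-OE (log2FC -0.28 ± 0.0536, adjusted p = 0.000199), both under the fold threshold.

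For gene20844, the 14.7 kDa sHSP, the levels stayed close to the WT. Its libraries had 44.3, 36.6 and 43.0 FPKM in the WT, 39.0, 31.0 and 40.4 FPKM in *VvSUC11*-OE, 46.0, 49.2 and 50.4 FPKM in *VvSUC12*-OE and 34.9, 38.9 and 44.8 FPKM in *VvSUC27*-OE fruits. The WT libraries overlapped with those of *VvSUC11*-OE and *VvSUC27*-OE in FPKM, and in scaled counts the lowest *VvSUC12*-OE library equalled the highest WT library. The log2FC against the WT was -0.22 ± 0.087 (adjusted p = 0.0405) in *VvSUC11*-OE, 0.10 ± 0.0645 (adjusted p = 0.193) in *VvSUC12*-OE and -0.08 ± 0.0779 (adjusted p = 0.383) in *VvSUC27*-OE fruits. Of its comparisons, only *VvSUC12*-OE against *VvSUC11*-OE passed the FDR (log2FC 0.32 ± 0.0807, adjusted p = 0.00208), below the fold threshold.

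**Figure D3:**
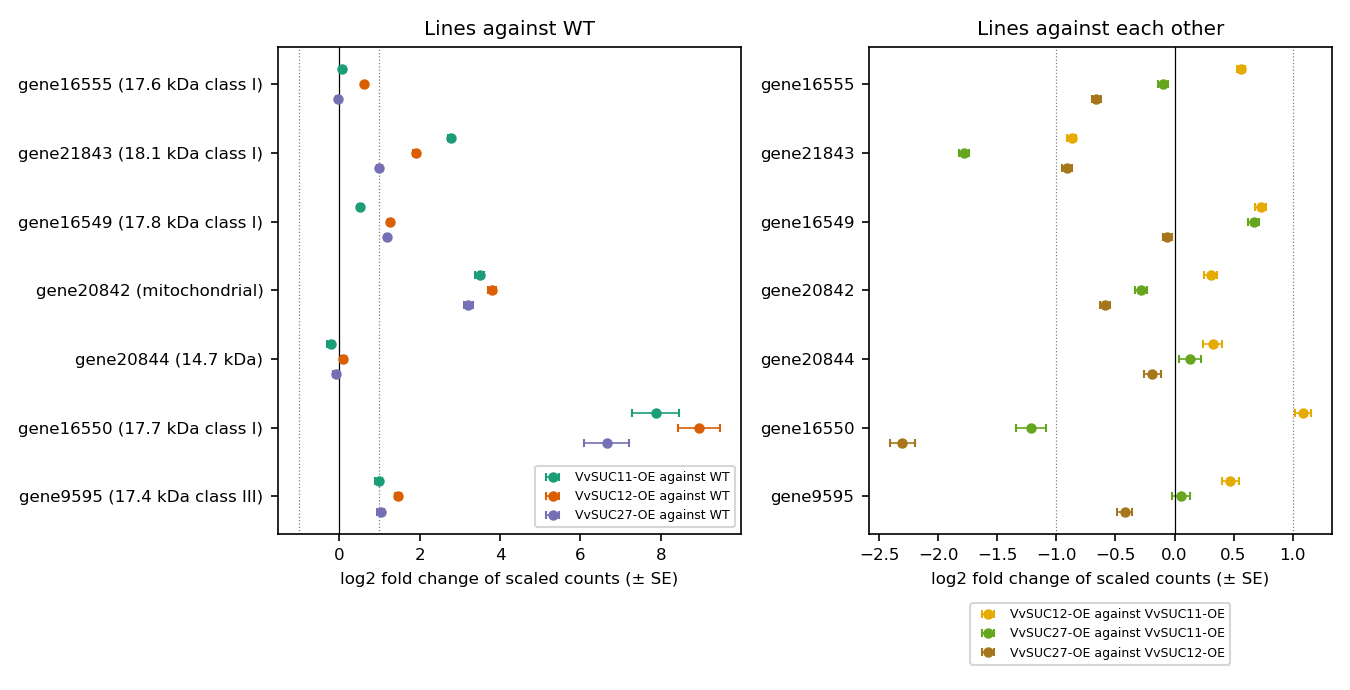
The log2FC of scaled counts (horizontal axis, ± SE from limma, 3 libraries per group) of the 7 genes, for the lines against the WT on the left and for the lines against each other on the right; dotted lines mark an absolute log2FC of 1. Against the WT, gene16550 and gene20842 lie at 3.21 or more in each line (a description, since these genes entered the choice through the lines), and gene16555 and gene20844 lie below 1 in all 3.

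Counted over the 7 genes, 3 were called up in *VvSUC11*-OE fruits against the WT, where 7.39% of all tested genes were called up. In *VvSUC12*-OE fruits 5 were called up, beside 3.31% of all genes, and in *VvSUC27*-OE fruits 4 were called up, beside 3.8% of all genes. limma called 0 of the 7 down in these comparisons, beside 7.33%, 5.3% and 7.22% of all genes. At an unadjusted p under 0.05 the count of lower genes was 1 (gene20844), 0 and 0, beside 6856 of 19128, 5486 of 18900 and 5687 of 18871 genes. The pair gene16550 and gene20842 is in each of these counts, so the counts describe the genes and are no support for a difference. All 3 libraries of the line were above all WT libraries for 5, 6 and 5 of the 7, again with this pair among them, beside 30.8%, 27% and 30.2% of all genes. Leaving out gene16550 and gene20842, the calls were gene21843 in *VvSUC11*-OE fruits, gene21843, gene16549 and gene9595 in *VvSUC12*-OE fruits, and gene16549 and gene9595 in *VvSUC27*-OE fruits. For the 5 genes that the WT alone would choose, the middle log2FC was 0.52 (gene16549), 1.25 (gene16549) and 0.99 (gene21843) in the lines. Over all genes with a WT mean of 10 scaled counts or more, the median was -0.04, -0.01 and -0.00387.

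Between the lines fewer calls were made. From *VvSUC11*-OE to *VvSUC12*-OE fruits 1 gene (gene16550, as a description) was called up, against 4.74% of all genes, and 0 down, against 5.51%. For 6 of the 7 (gene16550 as a description) all *VvSUC12*-OE libraries were above all *VvSUC11*-OE libraries, as for 32% of all genes. From *VvSUC11*-OE to *VvSUC27*-OE fruits 2 genes (gene21843 and, as a description, gene16550) were called down, against 6.99% of all genes, and 0 were called up, against 3.67%. In *VvSUC27*-OE against *VvSUC12*-OE fruits 1 gene (gene16550, a description too) was called down, against 4.16% of all genes, and 0 were called up, against 2.64%. All 7 genes (gene16550 as a description) had their 3 *VvSUC27*-OE libraries below the 3 *VvSUC12*-OE libraries, as 26.1% of all genes had. By group mean, *VvSUC12*-OE was the highest group for 6 of the 7 genes, and for 19.8% of 19451 genes in the whole table. The WT was the lowest group for 5 of the 7, and for 26.9% of these genes. The pair gene16550 and gene20842, which entered the choice through the lines, is in both counts, so both counts are a description.

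Several of the genes lie close together. The locus names place gene16549, gene16550 and gene16555 on chromosome 6, with gene16552, the first gene outside the choice and itself a class I gene (17.6 kDa isoform, HSP17-6 in RefSeq), between gene16550 and gene16555. In the RefSeq annotation of another assembly (SLM_r2.1) 0 protein-coding genes lie between gene16550 and gene16552 and 0 between gene16552 and gene16555, and 2 lie between gene16549 and gene16550. These 4 neighbours did not share an order of levels. The level of gene16552 was 19.3 ± 0.79 FPKM in WT and 21.7 ± 2.66 FPKM in *VvSUC11*-OE fruits, against 39.6 ± 0.916 FPKM with *VvSUC12* and 67.5 ± 3.23 FPKM with *VvSUC27*. Its highest group was therefore *VvSUC27*-OE (log2FC against the WT 1.78 ± 0.063, adjusted p = 7.75e-14), the line in which its neighbour gene16550 was lowest of the lines and in which gene16555 did not differ from the WT beyond the spread of the libraries. The same was seen on chromosome 8, where gene20843, a 22 kDa mitochondrial-like sHSP, sits by locus number between gene20842 and gene20844. It had at most 2 scaled counts in any library, so that a gene with a difference of 9.31 times or more from the WT, a gene near 0 and a gene close to its WT level stood in sequence.

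Replicates were close for most of the genes. The coefficient of variation of the FPKM within a group ranged from 3.14% (gene21843 in *VvSUC11*-OE) to 20.7% (gene16550 in *VvSUC27*-OE), apart from gene16550 in the WT, where the values were near 0. The median over genes with at least 50 scaled counts was between 4.6% and 5.53%. Beside gene16550, the genes with the largest relative spread were gene20842 (up to 16.4%, in the WT) and gene20844 (up to 13.8%, in *VvSUC11*-OE fruits).

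Over the 12 libraries the genes fell into patterns that were partly shared. The 21 pairwise Pearson correlations of log2(scaled count + 1) ran from -0.32 to 0.982 with a median of 0.576. They are a description, since the 12 libraries are 4 groups of 3 and share the differences between groups. The closest pair was gene20842 and gene16550 (r = 0.982), followed by gene20842 and gene9595 (r = 0.961), gene16550 and gene9595 (r = 0.947) and gene16549 and gene9595 (r = 0.902). These 4 were the pairs above 0.9, and they join genes of 3 classes and 3 chromosomes. In class I, gene16550 had r = 0.838 with gene21843, 0.777 with gene16549 and 0.51 with gene16555. The other class I pairs were gene16555 and gene16549 (r = 0.522), gene21843 and gene16549 (r = 0.374), and gene21843 and gene16555 (r = 0.357). The 3 pairs below 0 all held gene20844.

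Among 12514 other genes with enough reads, the most similar profile to gene9595 was that of gene8899 (r = 0.995), chaperone protein ClpB1, an HSP100 that pulls apart aggregated proteins. The profile nearest to gene20842 was gene25417 (r = 0.993), a mitochondrial-like BAG family co-chaperone regulator, followed by gene14852 (r = 0.990), an HSP90 annotated as heat shock protein 83-like, which was also the second nearest to gene16550 (r = 0.981) after gene17165 (r = 0.993), annotated as equilibrative nucleotide transporter 8. The second match of gene9595 was gene27010 (r = 0.986), an OXI1-like protein kinase. For gene16549 the nearest was gene14275 (r = 0.986), cytosolic ascorbate peroxidase 1, which removes hydrogen peroxide, with AGO2A2 (gene4705, r = 0.983) next. For gene16555 it was gene6127 (r = 0.984), annotated only as a heat shock protein, with gene22589 (r = 0.973), a BI1-like protein, next. Thus 4 of the 7 genes had a gene annotated as a chaperone, a co-chaperone or a heat shock protein among their nearest pair. This count is a description. It holds gene16550 and gene20842, which entered the choice through the lines, and the share of such annotations among the 12514 genes was not counted. For gene21843, by contrast, the nearest were gene9823 (r = 0.996), annotated as kirola-like, and gene18847 (r = 0.994), a pectinesterase. gene9823 had 93.2 FPKM in the WT and 1429 FPKM in *VvSUC11*-OE fruits, so the order of groups of gene21843 was shared with genes outside the chaperones. The nearest profile to gene20844 was gene18656 (r = 0.883), a B-box zinc finger protein, the weakest of the 7 best matches, with gene8097 (r = 0.878), a pentatricopeptide repeat protein, next.

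The remaining 22 named sHSPs were measured at lower levels. Together they gave 74.5 ± 5.27 FPKM in the WT and 203 ± 11.3 FPKM in *VvSUC11*-OE fruits, 356 ± 23.7 FPKM with *VvSUC12* and 283 ± 8.45 FPKM with *VvSUC27*. The 7 genes therefore made up 82.7% ± 1.58 of the FPKM of all named sHSPs in WT fruits, against 79.7% ± 0.219, 72.4% ± 0.627 and 66.5% ± 1.10 in the lines. Enough counts for a test were found for 18 of the 22 in the *VvSUC11*-OE and the *VvSUC12*-OE comparison and for 16 in the *VvSUC27*-OE comparison. Of these, 12, 13 and 11 were called up, beside the 7.39%, 3.31% and 3.8% of all genes given above. Some of these calls were of genes that had under 10 scaled counts on average in the WT and were tested only because of their level in the line: gene11345 and gene25677 in *VvSUC11*-OE, gene25677 and gene8771 in *VvSUC12*-OE and gene8771 in *VvSUC27*-OE fruits. Of the 15 tested genes with a WT mean of 10 scaled counts or more, 10, 11 and 10 were called up, beside 1026 of 18601, 444 of 18585 and 545 of 18576 genes of the whole table held to the same limit. The 2 called down were both in *VvSUC27*-OE fruits, gene21633 (small heat shock protein hspM, 3.81 ± 1.35 FPKM in the WT and 1.61 ± 0.517 in the line) and gene5362 (class V, 1.92 ± 0.479 and 0.826 ± 0.43 FPKM). Both were scarce, and 0 of them were called down without WT replicate 1. The median log2FC of these 15 genes was 1.42, 1.61 and 1.78 in the 3 lines. Of the 7 tested genes with an Hsp20 domain under another name, limma called 0, 0 and 2 up, and 4, 4 and 5 were higher at an unadjusted p under 0.05. Over all genes, 5837 of 19128, 5018 of 18900 and 5634 of 18871 were higher at this limit.

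The largest differences among these other sHSPs, among genes that averaged 50 scaled counts or more, were those of gene25677, gene19990 and gene19995. The class I gene25677 is given as a description, since it was nearly absent from the WT (2 to 7 scaled counts) and was tested only through its level in the line. In *VvSUC11*-OE libraries it had 115 to 136 scaled counts, the lowest of them 16.4 times the highest WT library. gene19990, a cytosolic class II gene, rose in each line, from 1.24 ± 0.167 FPKM to 15.1 ± 2.74, 26.5 ± 4.93 and 18.2 ± 1.03 FPKM (log2FC 3.53, 4.23 and 3.79, adjusted p = 1.21e-09, 3.05e-12 and 2e-11). gene19995, the other class II gene, rose from 3.25 ± 0.557 FPKM to 47.8 ± 2.77 FPKM in *VvSUC12*-OE fruits (log2FC 3.74 ± 0.138, adjusted p = 1.38e-13) and to 30.3 ± 1.62 FPKM in *VvSUC27*-OE fruits (log2FC 3.19 ± 0.155, adjusted p = 7.32e-12). In *VvSUC12*-OE fruits gene19995 was thus at the level of gene20844.

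**Figure D4:**
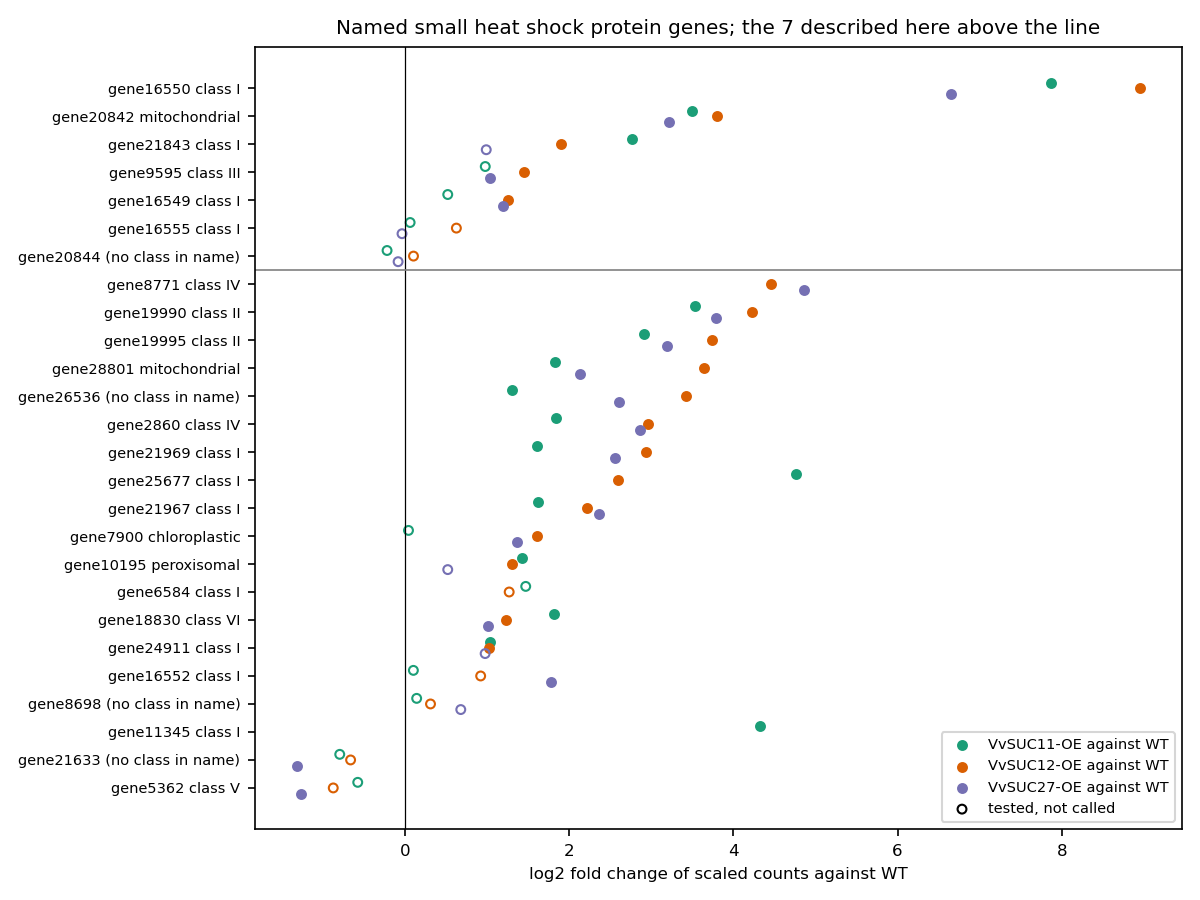
The log2FC of scaled counts against the WT (horizontal axis) of each named sHSP gene that was tested in at least 1 line, with the 7 abundant genes above the line; filled points were called at an FDR under 0.01 and an absolute log2FC above 1, open points were tested but not called, and the class is given after each identifier. Below the line most points are filled and to the right of 0 (gene11345, gene25677 and gene8771 had at most 7 scaled counts in any WT library, so that their place depends on the number added before the logarithm), and the 2 filled points left of 0 are gene21633 and gene5362 in *VvSUC27*-OE fruits.

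The chaperones that work with sHSPs were read from lists made by annotation. Beside the counts below, 7.39%, 3.31% and 3.8% of all tested genes were called up in the 3 lines, and 7.33%, 5.3% and 7.22% down. Of the HSP70 genes, which refold proteins released by sHSPs, 5 of 20 tested were called up and 1 down in *VvSUC11*-OE fruits, and 6 of 19 were called up and 1 down in each of the other lines. gene27182, an HSP70 annotated as heat shock cognate 70 kDa protein, rose from 7.10 ± 0.676 FPKM in the WT to 47.9 ± 0.553 FPKM in *VvSUC11*-OE fruits (log2FC 2.79 ± 0.0646, adjusted p = 4.34e-14), and its log2FC was 3.18 in *VvSUC12*-OE (adjusted p = 7e-17) and 3.10 in *VvSUC27*-OE fruits (adjusted p = 6.35e-17). Of the HSP90 genes 2 of 6 tested were called up in every line, with gene14852 at a log2FC of 2.64 in *VvSUC11*-OE (adjusted p = 1.59e-15) and gene6983 at 3.15 in *VvSUC12*-OE fruits (adjusted p = 6.56e-18). Of the pair of HSP100 genes tested, gene8899 (ClpB1) rose in all lines, from 14.9 ± 0.33 FPKM to 47.5 ± 2.77, 86.1 ± 4.28 and 55.9 ± 1.10 FPKM (adjusted p = 1.55e-13, 7.87e-19 and 1.68e-17). The other gene of the pair went the other way without being called, with a log2FC of -0.06, -0.70 and -0.24. Its libraries were below all WT libraries in each line. The group order of ClpB1 was that of gene9595, with *VvSUC12*-OE highest and the WT lowest.

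Heat stress transcription factors bind the promoters of sHSP genes. Of 22 tested, 3 were called up in each line, beside 7.39%, 3.31% and 3.8% of all genes. In *VvSUC27*-OE fruits 1 was called down, beside 7.22%. At an unadjusted p under 0.05, 11 were higher and 5 lower in *VvSUC11*-OE and 12 and 1 in *VvSUC12*-OE fruits. In *VvSUC27*-OE fruits 4 were higher and 11 lower, and the median log2FC was -0.21. Over all genes, 5837 were higher and 6856 lower, 5018 and 5486, and 5634 and 5687 in the 3 lines. gene22594, HsfA7a, rose from 4.82 ± 0.264 FPKM to 18.7 ± 1.82 FPKM in *VvSUC11*-OE (log2FC 1.93 ± 0.092, adjusted p = 1.1e-10) and 21.2 ± 1.502 FPKM in *VvSUC12*-OE fruits (log2FC 2.09 ± 0.0791, adjusted p = 1.87e-13). In *VvSUC27*-OE fruits gene17715, annotated as HsfA2-like, fell from 6.49 ± 0.63 to 2.14 ± 0.0972 FPKM (log2FC -1.60 ± 0.13, adjusted p = 9.81e-09). Of the BAG co-chaperone regulators, 2, 2 and 1 of 11 were called up, among them gene2230 (BAG6), with a log2FC of 3.05 in *VvSUC11*-OE (adjusted p = 2.34e-16) and 3.44 in *VvSUC12*-OE fruits (adjusted p = 2.09e-20). The DnaJ genes, whose products are partners of HSP70, gave 2 up and 1 down, 2 up and 0 down, and 1 up and 3 down of 54 tested. The DnaJ counts were near or under the shares over all genes, which were 7.39%, 3.31% and 3.8% up and 7.33%, 5.3% and 7.22% down. In the DnaJ list gene27547 rose in *VvSUC12*-OE (log2FC 2.24, adjusted p = 1.12e-16), gene25592 rose in *VvSUC11*-OE (log2FC 1.24, adjusted p = 6.54e-07) and gene12024 fell in *VvSUC27*-OE fruits (log2FC -2.55, adjusted p = 2.85e-10). No list was tested as a list.

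The libraries had totals of 20530052 to 21795363 scaled counts, a likeness set by the scaling, and their sequencing depth cannot be read from these values. The tissue was checked with marker lists. Of 5 fruit identity genes, TAGL1 (gene18532) had 109 FPKM in the WT and 119 to 132 FPKM in the lines, whereas AGL11 (gene15601), a MADS-box gene of ovules and seed coats, had 93.7 FPKM in the WT but 14.2, 35.2 and 18.2 FPKM in the 3 lines, and TAGL11 (gene26656) had 38.7 against 13.5, 15.7 and 14.9 FPKM. The sum of this list was 236 to 245 FPKM in the WT and 148 to 176 FPKM over the libraries of the lines. Of 4 ripening genes, polygalacturonase-2 (gene25136) was listed at 0 in the WT and *VvSUC27*-OE and at 1.60 and 0.685 FPKM in *VvSUC11*-OE and *VvSUC12*-OE fruits, while phytoene synthase 1 (gene7166), an enzyme of carotenoid synthesis, had 28.8 FPKM in the WT and 64.6, 29.0 and 39.9 FPKM in the lines. The ripening sum was 42.6 to 43.8 FPKM in the WT, 78.0 to 82.3 in *VvSUC11*-OE, 43.8 to 44.7 in *VvSUC12*-OE and 54.7 to 56.1 in *VvSUC27*-OE fruits.

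Other tissue markers moved with the groups. The summed FPKM of 31 seed storage and late embryogenesis genes was 127 to 133 in the WT, 118 to 174 in *VvSUC11*-OE, 140 to 166 in *VvSUC12*-OE and 47.0 to 50.4 in *VvSUC27*-OE fruits, with 12 of the 31 below 1 FPKM in every library and 0 at 0 in every library. One gene of the list, the Lea5-like gene14568, gave most of the sum in all groups but *VvSUC11*-OE, with 111 FPKM in the WT and 59.4, 128 and 33.3 FPKM in the lines. Without it the sum was 17.3 to 19.4 in the WT, 59.2 to 109 in *VvSUC11*-OE, 18.8 to 24.9 in *VvSUC12*-OE and 14.7 to 17.9 in *VvSUC27*-OE fruits. The higher rest in *VvSUC11*-OE fruits held genes of oil bodies and seed stores, such as oleosin 1 (gene14750, 0.0918 FPKM in the WT and 6.08 in the line, listed at 0 in the other lines) and vicilin (gene22939, 0.145 and 2.52 FPKM). The sum of 30 chloroplast genes was 12638 to 13732 in the WT, 10683 to 11280 in *VvSUC11*-OE, 8975 to 9466 in *VvSUC12*-OE and 12235 to 12709 in *VvSUC27*-OE fruits, lowest where 6 of the 7 sHSP genes were highest. The sum of 23 pollen and anther genes, of which 8 were below 1 FPKM in every library, was 2209 to 2276, 2486 to 2514, 2446 to 2519 and 2259 to 2284, with between 69.4% and 74.2% of the group sums from gene11014 alone. The part of these differences in the levels of the sHSP genes was not tested.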

How the data were processed

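RNA-seq of 12 libraries of 5 DPA tomato fruit (4 groups of 3) was used. The authors mapped reads with TopHat2 and deposited FPKM per gene and library, standardized with cuffnorm, with SL2.50 as the reference assembly per the study's footnote. The second deposited value, named counts by the authors, is a whole number whose library totals are nearly equal although the mapped reads are not. It was taken as a count that the authors scaled to a common size and rounded, here called a scaled count and treated as a score. The study lists the mapped reads of each library, with the fewest in a WT library, but the factors used in the scaling are unknown. Columns of the authors' EBSeq comparisons (fold change and FDR) and 6 deposited tables were not used.

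Per comparison of 6 libraries, a gene was kept if 3 or more libraries reached 10 scaled counts. The limma package (version 3.58.1, under R 4.3.3 with the data.table package, version 1.17.8) was fitted to log2(scaled count + 1), with a mean-variance trend and two-sided Benjamini-Hochberg adjustment over all genes tested. Tables and plots used Python 3.11.15, pandas 2.3.3, SciPy 1.17.1 and matplotlib 3.10.9. The procedure was tested on simulated data. The 7 genes and all lists were chosen with earlier results of these data known. Beside the 7, the genes named were, per comparison with the WT, the other sHSPs with the 2 largest log2FC in each direction and the largest of each chaperone list, among called genes that averaged 50 scaled counts or more and had libraries that did not overlap; the 2 nearest profiles of each gene; and gene16552, gene20843, gene21633 and gene5362, chosen after their values were seen. One activator of an HSP90 ATPase (gene25013) was left out of the sHSP family. Alternatives were another pseudocount (0.5 or 5), FPKM as log2(FPKM + 1), rescaling to equal totals and other filters on low values. Further alternatives were no trend, all 12 libraries in one fit, a replicate block, and leaving out each library. RefSeq was used for names and neighbours only, and no sequences were analysed here.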

Additional observations from a re-analysis of the deposited data

How the results depend on the processing

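Of 621 values of the 7 genes under the alternatives, 608 kept their direction and their side of the threshold, 4 fell below it, 6 passed it and 3 changed sign. The sign changed only where the value was near 0: in *VvSUC27*-OE against WT, leaving out 1 library gave -0.0739 to 0.0116 for gene16555 and -0.137 to 0.00103 for gene20844, both above 0 without *VvSUC27*-OE replicate 1, and gene9595 in *VvSUC27*-OE against *VvSUC11*-OE had -0.0181 after rescaling to equal totals. With all 12 libraries in one fit, whose spread takes in the WT libraries near 0, gene16550 lost its calls between *VvSUC11*-OE and the other lines, so that 0 genes were up in *VvSUC12*-OE and 1 was down in *VvSUC27*-OE fruits. Leaving out 1 library, the 7 genes gave 2 to 4, 4 to 5 and 3 to 5 calls up against the WT. gene16550 was not tested when a library of the line was left out, since fewer than 3 libraries then reached 10 scaled counts. Its log2FC against the WT ran from 3.95 in *VvSUC27*-OE fruits with log2(FPKM + 1) to 9.65 in *VvSUC12*-OE fruits at pseudocount 0.5 among the settings with all libraries.

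The replicate numbers were checked for pairing, and same-numbered libraries did not deviate together (r from -0.0348 to 0.0554 over 18 pairs, 0 of them above 0.1). With the replicate number as a block the 7 genes again gave 3, 5 and 4 calls up against the WT, and the block changed no call of theirs.

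Other named sHSPs called down in *VvSUC27*-OE against WT numbered 2, but 1 at pseudocount 0.5, at pseudocount 5, with no filter and with all libraries in one fit, and 0 with FPKM, under the stricter filter (an average of 50 scaled counts) and without the variance trend; leaving out 1 library gave 0 to 2. Between lines, the 2 called down became 1 under this filter in each comparison and 1 with FPKM in *VvSUC27*-OE against *VvSUC12*-OE, with 1 to 2 on leaving out 1 library, and the 5 called up in *VvSUC27*-OE against *VvSUC11*-OE became 3 to 5. Over all genes, the counts fell by more than 1.5 times in some settings. With FPKM, 875 rather than 1403 genes were down in *VvSUC11*-OE, 391 rather than 625 genes were up and 595 rather than 1001 were down in *VvSUC12*-OE, and 414 rather than 718 genes were up and 888 rather than 1362 were down in *VvSUC27*-OE against WT. Between lines FPKM gave 575 up (893) and 579 down (1037) in *VvSUC12*-OE against *VvSUC11*-OE, 420 up (690) in *VvSUC27*-OE against *VvSUC11*-OE, and 269 up (492) with 491 down (773) in *VvSUC27*-OE against *VvSUC12*-OE. The stricter filter, which tests fewer genes, gave 917 genes up and 902 down for *VvSUC11*-OE against WT. For *VvSUC12*-OE it gave 354 up with 543 down, and for *VvSUC27*-OE 422 up with 799 down. Between lines it gave 597 down in *VvSUC12*-OE and 823 down in *VvSUC27*-OE against *VvSUC11*-OE, and 307 up with 499 down in *VvSUC27*-OE against *VvSUC12*-OE fruits. Leaving out 1 library gave 637 to 978 down in *VvSUC12*-OE and 899 to 1362 down in *VvSUC27*-OE against WT, with the lowest without WT replicate 2. Genes that reached 10 scaled counts only in the WT were not tested when a WT library was left out. Without WT replicate 2, 18384 rather than 18871 genes were tested in *VvSUC27*-OE against WT. The part of this filter in the lower counts was not tested, nor was the cause of the other falls. The deposited values are scaled, so how far depth limits low genes such as gene21633 cannot be read from them.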
